A study of Homo sapiens with 36 samples.

Results

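To compare the chromatin of the fibroblast growth factor (FGF) receptor genes between a lung cancer cell line and a non-cancerous bronchial cell line, the 4 genes FGFR1, FGFR2, FGFR3 and FGFR4 were followed through 16 lists of chromatin immunoprecipitation sequencing (ChIP-seq) peaks. The members were chosen by name, as 4 of 20007 protein-coding genes. All 4 lie on chromosomes 1 to 12, which every list covers and which hold 12569 protein-coding genes. For each gene, 3 sets of peaks were read, namely peaks within 3 kb of any annotated start site of the gene, peaks across the gene body, and peaks of the Jun family within 200 kb of the gene start.

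FGF receptors are receptor tyrosine kinases that sit in the cell membrane, bind secreted FGF ligands together with heparan sulfate or a Klotho co-receptor, and pass the signal through the adaptor FRS2 to the RAS and MAP kinase cascade. Sprouty, Spred and dual-specificity phosphatase proteins switch the signal off again. Alternative splicing, steered by the epithelial splicing regulators ESRP1 and ESRP2, gives FGFR1, FGFR2 and FGFR3 separate epithelial and mesenchymal forms. In lung tissue FGFR2 is known for its part in branching and in the alveolar epithelium, and amplified FGFR1 and rearranged FGFR3 are known from lung cancers.

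The A549 samples come from A549, a human lung adenocarcinoma cell line, and the B2B samples from BEAS-2B (B2B), a non-cancerous human bronchial epithelial line. No treatment or genotype change is given for either, and each stands for its kind by 1 established line. RNA polymerase II (pol II), the promoter mark H3K4me3, the mark of active elements H3K27ac, the Mediator subunit Med1 and the AP-1 subunits JunB, Jun and JunD were measured in both lines. The insulator factor CTCF and the cohesin subunit Rad21 are used here for B2B. The labels give 2 replicates for each target and line, which the authors merged before peak calling, so each value below comes from 1 pooled list, has no replicate error, and no difference between the lines could be tested against the spread of replicates.

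The lists held between 8597 peaks (B2B JunB) and 61368 peaks (B2B CTCF). Fold enrichment, as deposited, divides the reads at a summit by what the peak caller took as background around it. A small constant is added to both. The scale of the fold differs between lists, so strength is compared between lines by the rank of a fold within its list. Reads at the summit (the pileup) and the background behind a fold were solved from the fold and its p-value. For pol II and the histone marks, the B2B peaks rested on higher backgrounds, with a list median of 27.7 reads for H3K4me3, 11.97 for H3K27ac and 9.06 for pol II, against 3.27, 2.16 and 2.36 in A549. In the Jun-family lists the B2B medians were slightly lower, with 1.26 for Jun, 2.22 for JunB and 2.79 for JunD, against 1.38, 2.49 and 2.89. The part of the higher background in peaks that are missing from the B2B lists was not tested. By H3K4me3, both lines carried 5 of 6 epithelial and 4 of 4 mesenchymal marker genes. Of 5 genes of alveolar type II cells and lung adenocarcinoma, 4 were marked in A549 and 2 in B2B, and of 3 blood genes 1 (PTPRC) was marked in A549 and 0 in B2B. Of 5 genes of airway basal cells, TP63 and NGFR were marked in A549 alone, KRT17 in B2B alone, and KRT5 and KRT14 in neither, although B2B is labelled bronchial epithelial.

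Counted over all annotated start sites, FGFR1 had promoter peaks of 7 of the 7 targets measured in both lines in A549 and of 7 in B2B. FGFR2 had 4 and 4, FGFR3 had 3 and 2, and FGFR4 had 7 and 2. The median over the 12569 genes was 4 in A549 and 4 in B2B. By target, pol II had a promoter peak at 4 of the 4 receptors in A549 (68.8% of all genes) and at 3 in B2B (51.7%), H3K4me3 at 4 (74.6%) and 1 (63.1%), and H3K27ac at 4 (73.5%) and 4 (64.3%). Med1 had it at 3 (54.2%) and 3 (60.7%), JunB at 2 (32.3%) and 1 (5.77%), Jun at 2 (39.2%) and 2 (27%), and JunD at 2 (17.7%) and 1 (3.68%). In B2B, CTCF had it at 3 (50.8%) and Rad21 at 4 (68.1%). The receptors thus parted most in H3K4me3, which all 4 carried in A549 and FGFR1 alone in B2B. Peaks of 7 targets in A549 were found at 13.3% of all genes and peaks of 7 targets in B2B at 2.27%. An excess of 5 or more targets in A549, as FGFR4 had, was found at 1.6% of all genes.

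**Figure D1:**
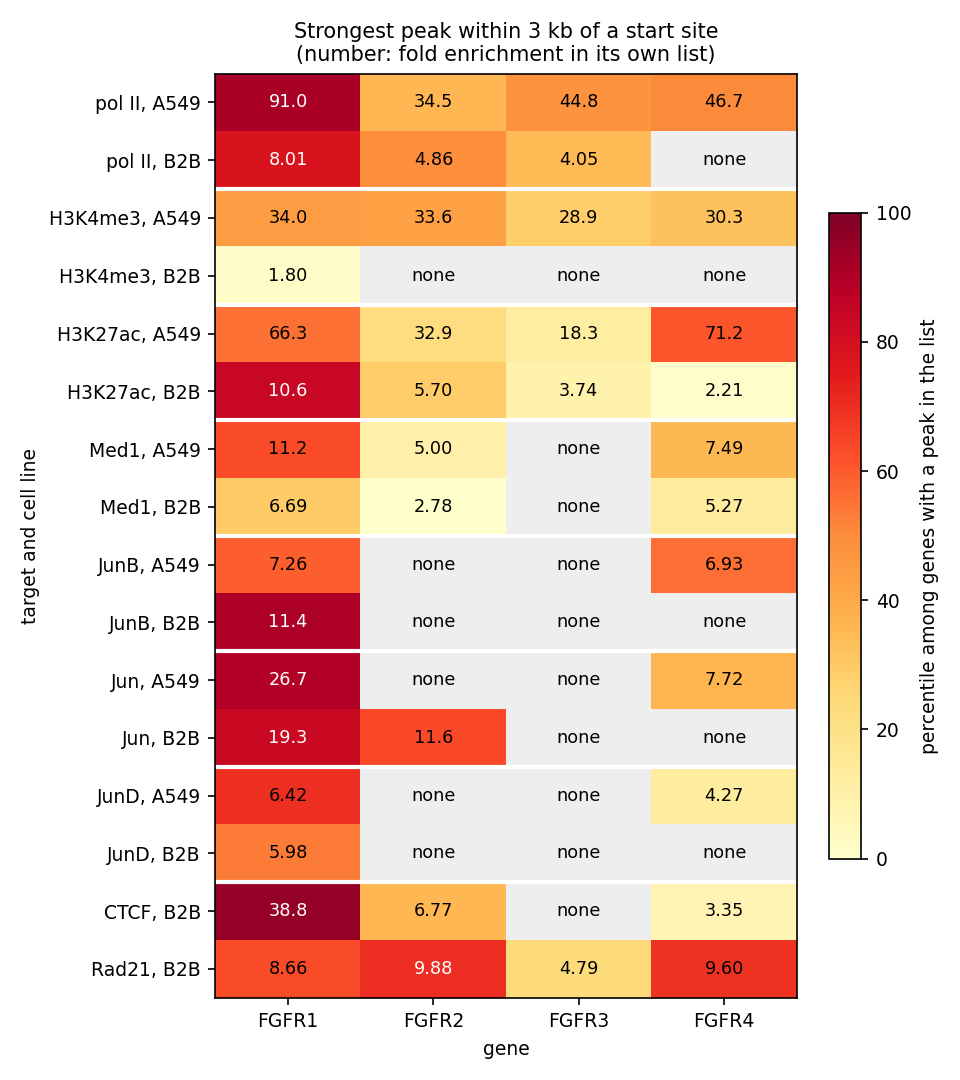
Strongest peak within 3 kb of any annotated start site of each FGF receptor gene (columns) in each of the 16 lists (rows); the printed number is the fold enrichment, grey cells marked none have no peak, and the colour gives the percentile of that fold among the genes with a peak in the same list. FGFR1 has a value in every row, H3K4me3 has none in B2B for FGFR2, FGFR3 and FGFR4, and the Jun-family rows of FGFR3 are empty in both lines.

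The annotation weighs on these counts, since FGFR1 has 47 annotated start sites and FGFR2 has 36, against a median of 5 per gene, and many of them lie inside the gene. The windows of 3 kb around them covered 46.2 kb for FGFR1 and 69.4 kb for FGFR2, against a median of 12.2 kb. At the 5-prime end of the gene record alone, FGFR1 had peaks of 7 targets in A549 and 4 in B2B, FGFR2 had 4 and 0, FGFR3 had 3 and 2, and FGFR4 had 7 and 2. So all 4 genes had more targets in A549 there, a direction that 48.7% of all genes shared. A lead of at least 3 targets, as at FGFR1, was found at 12.8% of all genes, a lead of at least 4, as at FGFR2, at 3.36%, and a lead of at least 5, as at FGFR4, at 1.21%.

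The sequence just before the start of the gene is shown for the receptors whose first promoter entry was found in the RefSeq table (build GRCh38.p14), to set the base composition of these promoters beside their marks. Each is written 5′ to 3′ on the strand of the gene and ends where the first GENCODE exon begins. Capitals mark the GC box, GGGCGG or its reverse complement CCGCCC, to which factors of the SP1 family bind.

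FGFR2 (chr10:121598459-121598694, minus strand): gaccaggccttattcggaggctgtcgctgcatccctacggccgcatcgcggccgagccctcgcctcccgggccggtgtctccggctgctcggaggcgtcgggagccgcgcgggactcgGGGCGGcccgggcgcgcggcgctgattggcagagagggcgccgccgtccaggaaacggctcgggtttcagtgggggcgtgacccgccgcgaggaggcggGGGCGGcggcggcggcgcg
FGFR3 (chr4:1793043-1793292, plus strand): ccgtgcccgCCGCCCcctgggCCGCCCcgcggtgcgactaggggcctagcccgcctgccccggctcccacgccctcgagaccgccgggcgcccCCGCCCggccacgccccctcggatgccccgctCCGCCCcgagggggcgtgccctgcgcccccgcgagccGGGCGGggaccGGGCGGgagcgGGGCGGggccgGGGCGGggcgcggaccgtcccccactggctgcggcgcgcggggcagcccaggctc
FGFR4 (chr5:177086665-177086904, plus strand): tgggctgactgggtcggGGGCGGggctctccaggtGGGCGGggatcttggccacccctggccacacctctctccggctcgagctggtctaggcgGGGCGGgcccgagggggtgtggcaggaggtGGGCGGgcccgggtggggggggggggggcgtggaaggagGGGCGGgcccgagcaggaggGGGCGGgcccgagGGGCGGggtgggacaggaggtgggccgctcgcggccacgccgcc

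All 3 were rich in G and C, with 78.4% in the 250 bases before the RefSeq start of FGFR2, 86.8% for FGFR3 and 79.6% for FGFR4, against a median of 58% over 35116 promoter entries. The GC box matched 2 times before FGFR2, 8 times before FGFR3 and 7 times before FGFR4, and 42.6% of all entries held at least 1 match. The AP-1 motif, TGAGTCA or its reverse complement TGACTCA, was found in none of the 3, and 4.20% of all entries held it. The CRE motif TGACGTCA, which is its own reverse complement, was found in none of them either and in 1.65% of all entries. FGFR1 had no entry in the table.

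FGFR1 (ENSG00000077782.23, chr8:38400215-38468834, minus strand), the receptor most often amplified in squamous lung cancer, carried the broadest marks of the 4 genes. In A549, 1 pol II peak of 4027 bp covered the start with a fold of 91.0, which lay at percentile 91.4 among the 8651 genes with a pol II promoter peak. H3K4me3 formed 1 peak of 4360 bp with a fold of 34.0 (percentile 44.6), and H3K27ac 1 peak of 3598 bp with a fold of 66.3 (percentile 55.7). Med1, which bridges enhancers and the polymerase, had 5 peaks there with folds up to 11.2. In B2B, the same start carried pol II, H3K27ac, Med1 and H3K4me3 as well. The pol II peak at 0.234 kb downstream of the start had a fold of 5.68, from 269 reads over a background of 46.6. The 2 H3K27ac peaks had folds of 7.05 at 1.06 kb and 10.6 at 3.21 kb (percentile 83.7 among the genes with an H3K27ac promoter peak in B2B). H3K4me3 had a fold of 1.80 over 3053 bp, from 145 reads over a background of 80.2, which placed it at percentile 1.44 among the genes with an H3K4me3 promoter peak in B2B. All 3 were thus listed at this start in both lines, where promoter peaks in both lines were found at 50.3% (pol II), 61.8% (H3K4me3) and 62.3% (H3K27ac) of all genes.

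The pol II peaks of A549 ran on into the gene body of FGFR1. The body held 24 pol II peaks in A549, which covered 18.9% of it, and as many or more were found in 0.668% of all genes. The body held 8 pol II peaks in B2B, which covered 4.34%, and as many or more were found in 1.77% of all genes. By covered share of the body, FGFR1 stood above 91.2% of genes in A549 and above 89.1% in B2B. In A549, 18 of the 23 peaks beyond the start lay between 5.21 kb and 30.1 kb, and the other 5 lay between 64.5 kb and 67.6 kb, close to the 3-prime end of the gene record. Of the 8 B2B peaks, 4 lay at the same end, between 63.5 kb and 67.2 kb. The 23 A549 peaks were weak calls, with folds from 3.66 to 6.49 at percentiles 4.54 to 47.6 of their list. The 4 B2B peaks had folds from 4.69 to 8.01 at percentiles 46.8 to 82.1 of theirs. The reads behind these calls were similar. They were 11 to 22 over backgrounds of 1.96 to 3.78 in A549, and 12 to 27 over 1.67 to 3.43 in B2B. The list medians of background were 2.36 in A549 and 9.06 in B2B, and their part in the ranks was not tested. The B2B list had no pol II peak between 3.29 kb and 63.5 kb.

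**Figure D2:**
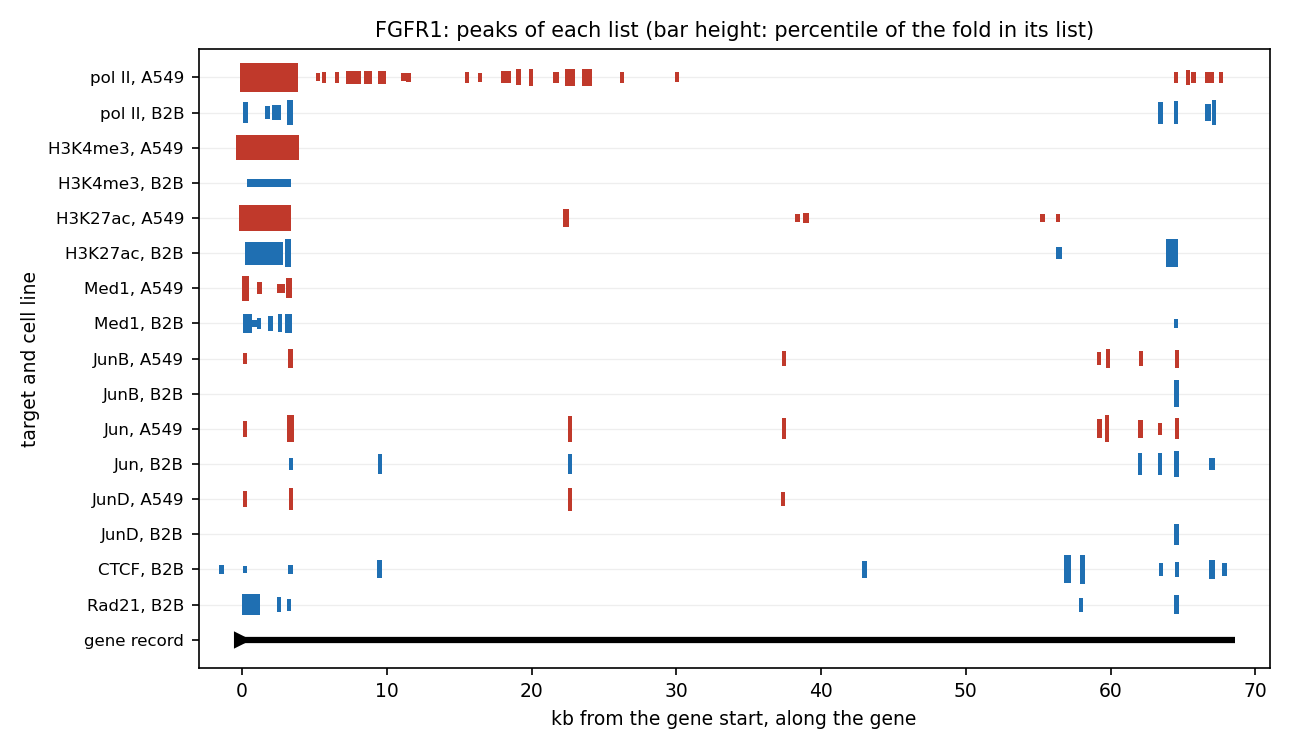
Peaks along FGFR1 in each of the 16 lists (rows; A549 in red, B2B in blue) by distance in kb from the gene start, with the gene record in black and the height of each bar giving the percentile of its fold within its own list. The A549 pol II row shows the 4027 bp peak at the start followed by small peaks up to 30.1 kb and the A549 and B2B rows of Jun and JunB both show peaks near 64.6 kb; CTCF and Rad21 are shown for B2B.

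Jun-family proteins, the Jun partners in the AP-1 factor, met at 3 places within the first 40 kb of FGFR1 in A549. At 0.21 kb, inside the first part of the transcribed region, JunB had a fold of 4.76, Jun 8.06 and JunD 5.24, and no Jun-family peak was listed there in B2B. At 3.39 kb, next to another start site, the A549 folds were 7.26, 26.7 and 6.42, and B2B had Jun alone with a fold of 5.97, from 43 reads over a background of 6.37. At 37.5 kb, in an intron, A549 again had all 3 proteins, with folds of 5.87, 11.6 and 4.80, and B2B had none. None of these 3 places held the AP-1 motif within 50 bp of a summit. Promoter peaks of all 3 Jun-family proteins in A549 were found at 13.9% of all genes, and in B2B at 2.91%.

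In B2B, the promoter peaks of JunB and JunD at FGFR1 came from a single place, 64.6 kb from the start in an intron that FGFR1 shares with the overlapping gene LETM2. There JunB had a fold of 11.4, Jun of 19.3 and JunD of 5.98 in B2B, and JunB had 6.77 and Jun 11.5 in A549. The AP-1 motif was present. H3K27ac (fold 10.1, percentile 89.8 of its list), Med1 (4.48), pol II (6.32) and Rad21 (7.50) of B2B overlapped it, while of the A549 marks pol II alone did, with a fold of 4.53. The H3K27ac peak of B2B rested on 32 reads over a background of 2.26, beside list medians of 64 reads and 11.97. By Jun fold the place at 64.6 kb was the strongest site of the FGFR1 body in B2B. The strongest of A549 lay at 3.39 kb (26.7), followed by a site at 59.8 kb with a Jun fold of 25.4 that was called in A549 alone. At 22.7 kb, in an intron, the marks were the other way round: Jun was listed in both lines with folds of 19.6 in A549 and 9.53 in B2B, JunD (6.70), H3K27ac (10.3) and pol II (6.49) were listed in A549, and no H3K27ac, Med1 or pol II peak of B2B overlapped the region.

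CTCF, which with cohesin sets the ends of chromatin loops, had 10 peaks in the FGFR1 body in B2B, as many or more of which were found in 3.64% of genes. The 2 strongest lay 58.0 kb and 57.1 kb from the start with folds of 38.8 and 36.3, at percentiles 94.9 and 93.8 of the CTCF list. A Rad21 peak with a fold of 5.22 overlapped the first of them. The B2B factors were thus spread along the gene, with Rad21 strongest at the start (fold 8.66 over 1262 bp), CTCF strongest in the last part, and H3K27ac present at both ends.

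FGFR2 (ENSG00000066468.24, chr10:121478332-121598458, minus strand), the receptor of the FGF ligands that shape lung branching, had its A549 and B2B peaks at different places. In A549, the start carried H3K4me3 with a fold of 33.6 over 2076 bp, H3K27ac with 32.9 over 1648 bp, pol II with 34.5 over 679 bp, and Med1 with 5.00 over 386 bp. These folds lay at percentiles 43.1, 22.2, 35.9 and 9.85 among the genes with a promoter peak in the same list, so none of the 4 was above the middle of those genes. Among all peaks of the same list they lay at percentiles 77.0, 71.8, 82.9 and 17.5. None of the 3 Jun-family proteins had a peak anywhere in the gene body in A549. H3K4me3 without a Jun-family promoter peak was found in A549 at 32.1% of all genes.

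In B2B, the start of FGFR2 had no peak of the 7 shared targets and carried 2 Rad21 peaks alone, with folds of 9.88 at 1.12 kb and 5.75 at the start itself. The reads behind them were 157 and 91 over a background of 15. H3K4me3 in A549 and not in B2B was found at 12.8% of all genes. The peaks that counted for B2B lay between 70.6 kb and 94.8 kb into the gene, near start sites of transcripts that are not of the protein-coding type. Jun had folds of 11.6 at 70.6 kb, 10.3 at 87.8 kb and 6.93 at 94.8 kb, each from 14 to 24 reads. Weak pol II peaks (folds 4.86, 4.74 and 4.08), 1 H3K27ac peak (5.70), 1 Med1 peak (2.78) and 2 CTCF peaks (6.77 and 6.37) stood beside the first 2 of these places. Counted over transcripts of the protein-coding type alone, FGFR2 had 0 of 7 targets in B2B and 4 in A549.

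FGFR3 (ENSG00000068078.20, chr4:1793293-1808872, plus strand), a receptor of epithelia and growing bone, had promoter marks without Jun-family or Med1 peaks. In A549, H3K4me3 covered 3184 bp with a fold of 28.9, pol II 562 bp with a fold of 44.8, and H3K27ac 2929 bp with a fold of 18.3, at percentiles 28.4, 48.0 and 12.5 among marked genes. In B2B, pol II had a fold of 4.05 from 134 reads over a background of 32.4, and H3K27ac had 3.74 from 118 reads over 30.9. No H3K4me3 peak was listed in B2B, as at FGFR2 and FGFR4. Rad21 had 4 peaks in the FGFR3 body in B2B with folds from 3.03 to 4.79, as many or more of which were found in 9.79% of genes, and CTCF had none. The difference between the lines at FGFR3 was therefore 1 target, H3K4me3.

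FGFR4 (ENSG00000160867.15, chr5:177086905-177098144, plus strand), the receptor that with the co-receptor Klotho beta binds FGF19, showed the largest difference in number of targets among the 4 genes. In A549, H3K27ac had a fold of 71.2 over 1606 bp, pol II of 46.7 over 1227 bp and H3K4me3 of 30.3 over 1815 bp. Med1 had 7.49. All 3 Jun-family proteins met in an intron next to the start, where JunB had 6.93 over 527 bp, Jun 6.31 and JunD 4.27. A second Jun peak (fold 7.72) lay at 7.85 kb inside an H3K27ac peak with a fold of 12.5. FGFR4 was thus bound by the Jun family in A549 at its start and once more within the gene. Within their lists, the folds at the start lay at percentiles 52.2 (JunB), 21.5 (Jun) and 19.3 (JunD). The second Jun peak lay at percentile 38.1.

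In B2B, H3K27ac had a fold of 2.21 at the start of FGFR4, from 114 reads over a background of 51.1, which lay at percentile 0.631 among marked genes. Med1 had 5.27 from 20 reads over 2.98, and a further Med1 peak with a fold of 3.01 lay at 10.0 kb. No pol II, H3K4me3 or Jun-family peak was listed. CTCF (fold 3.35, 153 reads over 45.0) and Rad21 (9.60, 215 reads over 21.5) had peaks at the start. The backgrounds at this start were above the list medians of 11.97 for H3K27ac, 2.21 for CTCF and 8.00 for Rad21. H3K4me3 and pol II in A549 with neither in B2B were found at 6.95% of all genes, and all 3 Jun-family proteins in A549 with none in B2B at 5.67%.

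**Figure D3:**
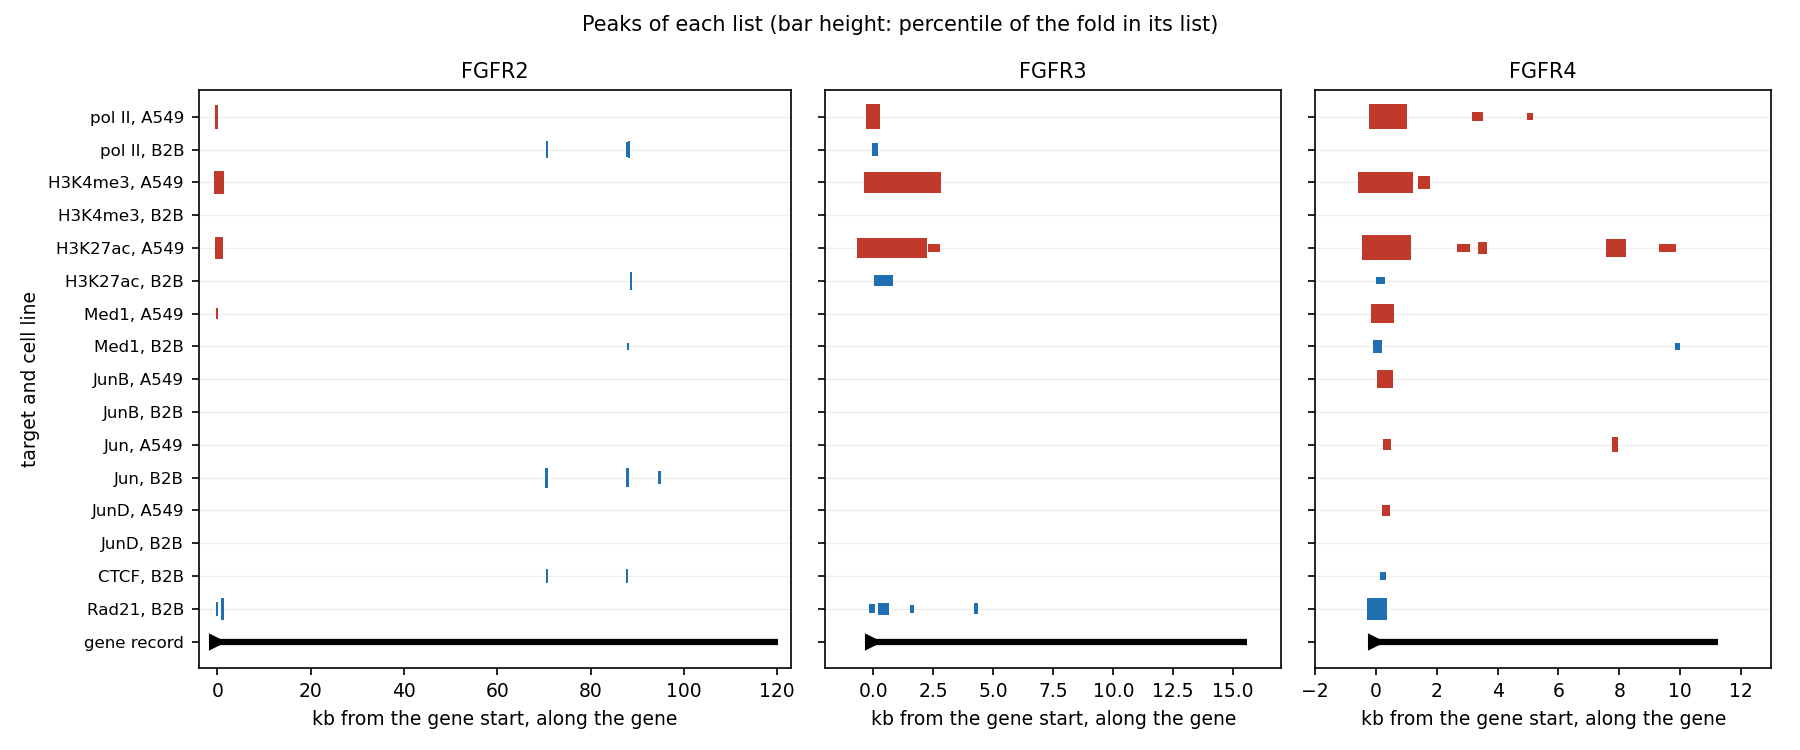
Peaks along FGFR2, FGFR3 and FGFR4 in each of the 16 lists (rows; A549 in red, B2B in blue) by distance in kb from the gene start, each gene on its own scale, with the gene record in black and bar height giving the percentile of the fold within its list. At FGFR2 the A549 peaks sit at the start and those of B2B, apart from Rad21, between 70.6 and 94.8 kb; at FGFR4 A549 has peaks in all 7 shared targets and B2B in H3K27ac and Med1.

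The genes with the most similar pattern were sought by the Pearson correlation of log2 of 1 plus the strongest promoter fold over the 16 lists, given as a description only. For FGFR1 they were ACER3 (r = 0.947), PRKAG2 (0.933) and ARHGEF28 (0.928), each with peaks in all 16 lists. For FGFR2 they were MFSD6 (0.965), ARHGEF17 (0.964) and SNX9 (0.963). For FGFR3 SCARB1 (0.979) and SH2B2 (0.957) were among them, and for FGFR4 the overlapping pair ENSG00000288695 and SRD5A3 (both 0.989), followed by F12 (0.986), all 3 with 7 targets in A549 and 2 in B2B. Among themselves the receptors were less alike, with r from 0.609 (FGFR2 and FGFR4) to 0.806 (FGFR2 and FGFR3). The 16 values share libraries by list and differ in scale between lists.

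Jun-family peaks of the 6 lists that overlapped by at least 1 bp were merged into regions, and each region was called in both lines, in A549 alone or in B2B alone. Within 200 kb of the gene start, FGFR1 had 24 regions, FGFR2 had 8, FGFR3 had 5 and FGFR4 had 13, against a median of 12 over 20007 genes. As many regions as at FGFR1 were found at 10.1% of genes, and as many as at FGFR3 at 87.2%. Of the 24 regions at FGFR1, 9 were called in both lines, 8 in A549 alone and 7 in B2B alone. FGFR2 had 1, 1 and 6, FGFR3 had 1, 1 and 3, and FGFR4 had 2, 7 and 4. The regions near FGFR4 leaned to A549 and those near FGFR2 to B2B, with differences of 3 and -5 regions. A difference of 3 or higher was found at 35.8% of genes. A difference of -5 or higher was found at 89.8%, so that 10.2% of genes leaned further to B2B than FGFR2. The median gene had 1 more region in A549. The lean depended on the window, since within 500 kb the difference was 24 at FGFR4, 7 at FGFR2, -5 at FGFR1 and 2 at FGFR3.

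Taken over the 50 regions, 13 were called in both lines, which is 26.0% (95% Wilson interval 15.9 to 39.6, counting error only) and lies beside 26.5% of all 72011 regions in the genome. A further 17 were called in A549 alone (34%, against 34.1%) and 20 in B2B alone (40%, against 39.4%). The genome share of shared regions lay inside the interval of the receptor genes. The intervals of this paragraph treat regions as independent, although 24 of the 50 lie near FGFR1. They therefore cannot decide whether the receptors differ from the genome. The A549 JunB list held 28510 peaks and the B2B list 8597, so that JunB calls were scarcer in B2B over the whole genome. The shares that follow are set beside those of all regions on chromosomes 1 to 12. Of the 20 regions of B2B alone, 17 held Jun alone (85%, against 86.2%) and 1 overlapped H3K27ac of B2B (5%, against 7.40%). Of the 17 regions of A549 alone, 9 overlapped H3K27ac of A549 (52.9%, against 34.6%). The AP-1 motif lay within 50 bp of a summit in 23 of the 50 regions (46%, interval 33.0 to 59.6), against 37.1% of all regions in the genome, and in 9 of the 13 shared regions (69.2%, against 55.9%), 4 of the 17 of A549 alone (23.5%, against 31.3%) and 10 of the 20 of B2B alone (50%, against 29.6%).

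**Figure D4:**
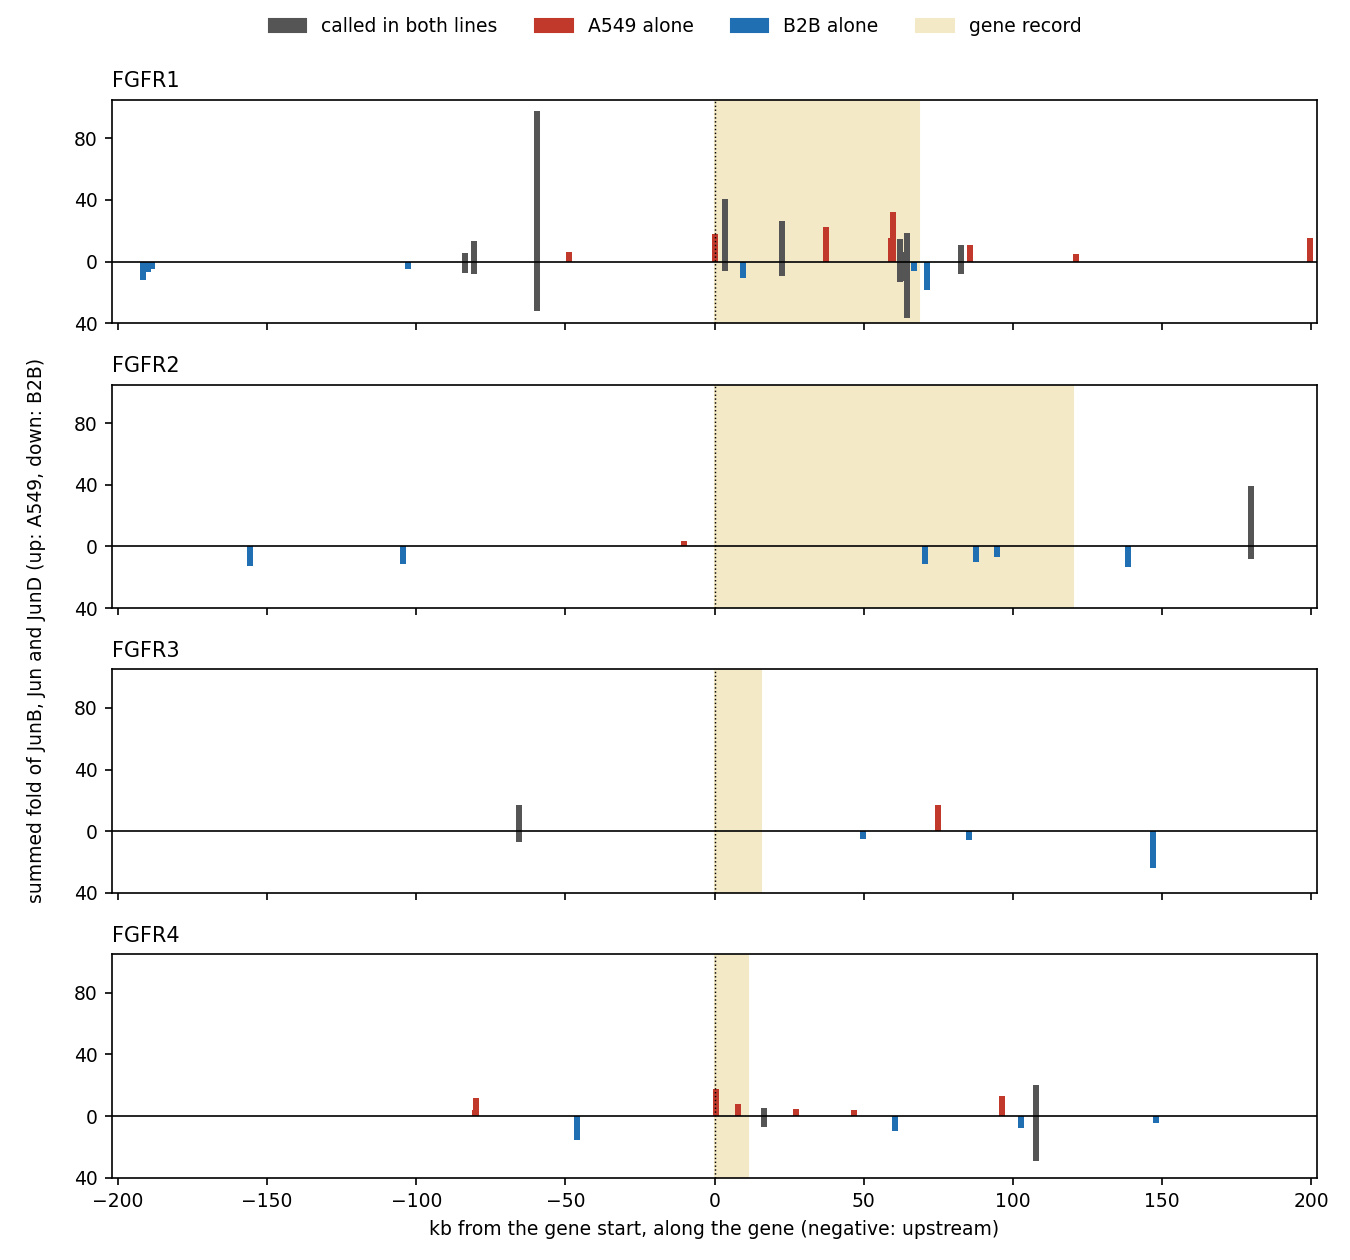
Jun-family regions within 200 kb of each FGF receptor gene by distance in kb from the gene start; bars give the sum of the folds of JunB, Jun and JunD, upward for A549 and downward for B2B, coloured by whether the region was called in both lines, in A549 alone or in B2B alone, with the gene record shaded. The tallest bar stands 59.4 kb upstream of FGFR1 and is shared, while the regions of FGFR2 are, but for 2, called in B2B alone.

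The strongest of the 50 regions lay 59.4 kb upstream of FGFR1 (chr8:38526910-38528561), in an intron of the non-coding gene LINC03042, and no nearer protein-coding start than that of FGFR1 is annotated. In A549, Jun had a fold of 49.0 (percentile 97.9 of its list), JunB 36.5 (99.3) and JunD 12.2 (95.3). In B2B, Jun had 18.4 (82.6), JunB 7.56 (65.1) and JunD 6.30 (68.3). Pol II, H3K27ac, H3K4me3 and Med1 overlapped it in both lines, with A549 folds of 47.8, 30.9, 8.65 and 14.4 and B2B folds of 8.58, 9.18, 8.31 and 4.40. The region ranked higher within all 3 Jun-family lists of A549 than within those of B2B. Its strongest Med1 and pol II peaks also ranked higher in A549 (88.9 against 11.4 and 88.1 against 84.2). Its strongest H3K4me3 and H3K27ac peaks ranked higher in B2B (92.6 against 43.0 and 86.0 against 70.8). Their reads were nevertheless fewer in B2B. H3K4me3 had 32 reads over a background of 2.97 in B2B and 49 over 4.78 in A549. H3K27ac had 42 over 3.68 in B2B and 106 over 2.46 in A549. The median backgrounds of these B2B lists were 27.7 and 11.97, and their part in the ranks was not tested. Whether the region contacts the FGFR1 start was not measured in these lists.

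To show the bases under main sites of FGFR2 and FGFR4, 101 bases around the strongest summit are printed from hg38, 5′ to 3′ on the plus strand, for sites outside exons. Capitals mark the AP-1 motif. The FGFR2 sites are the shared one, one of B2B alone within the gene that held the motif and the one of B2B alone with the highest Jun fold, and the FGFR4 intron is shown because all 3 proteins met there without the motif.

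FGFR2, 180 kb downstream of the start, both lines (chr10:121418406-121418506): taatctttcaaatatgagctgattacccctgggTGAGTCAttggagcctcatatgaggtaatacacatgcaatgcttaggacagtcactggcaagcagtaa
FGFR2, intron at 87.8 kb, B2B alone (chr10:121510621-121510721): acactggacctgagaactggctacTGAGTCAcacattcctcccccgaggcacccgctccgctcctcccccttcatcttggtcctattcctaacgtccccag
FGFR2, 155.9 kb upstream, B2B alone (chr10:121754350-121754450): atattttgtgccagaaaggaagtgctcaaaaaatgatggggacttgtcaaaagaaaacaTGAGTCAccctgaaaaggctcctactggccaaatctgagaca
FGFR4, intron at 0.375 kb, A549 alone (chr5:177087230-177087330): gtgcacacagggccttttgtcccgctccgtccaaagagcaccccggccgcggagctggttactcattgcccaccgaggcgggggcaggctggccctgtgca

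At FGFR2, the site 180 kb downstream was the strongest, with a Jun fold of 33.0 and a JunB fold of 6.09 in A549 and a Jun fold of 8.32 in B2B, and its motif lay 14 bp from the summit. The sole region of A549 alone lay 10.3 kb upstream with a JunB fold of 3.81, at percentile 2.63 of its list, under A549 peaks of H3K27ac (fold 19.4), H3K4me3 (13.7) and Med1 (4.93). In B2B the same place carried Rad21 (14.9) and CTCF (5.61). The site 155.9 kb upstream had a Jun fold of 12.5 in B2B, the highest of the 6 regions of B2B alone. No Jun-family region near FGFR2 held all 3 proteins in either line.

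At FGFR3, the region called in both lines lay 65.7 kb upstream at TACC3, a gene known as a fusion partner of FGFR3, with A549 folds of 10.3 for JunB and 6.99 for Jun and a B2B fold of 6.80 for Jun. In B2B, all 3 proteins met at 147 kb in the gene NSD2, with folds of 5.77, 13.4 and 4.33, and A549 had none there. All 3 proteins in B2B with none in A549 were found at 1.17% of all regions.

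At FGFR4, the intron site held all 3 proteins in A549 and none in B2B, as did 3.38% of all regions. The strongest site lay 107.7 kb downstream in an intron of NSD1 and was called in both lines, with Jun folds of 18.8 in B2B and 12.7 in A549, and all 3 proteins in B2B. The H3K27ac peak that overlapped it in B2B had a fold of 14.2, at percentile 97.0 of its list, and none overlapped it in A549. This B2B peak rested on 59 reads over a background of 3.22, beside list medians of 64 reads and 11.97. Jun-family binding was thus of A549 alone at the intron site next to the start and shared at the distant site. Of all 13 regions near FGFR4, 2 were called in both lines, 7 in A549 alone and 4 in B2B alone.

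The same marks were read at neighbouring genes. Protein-coding genes whose start lies within 200 kb were LETM2, NSD3 and PLPP5 at FGFR1, FAM53A, SLBP, TACC3, TMEM129, LETM1 and NSD2 at FGFR3, HK3, UIMC1, ZNF346 and NSD1 at FGFR4, and none at FGFR2. A methyltransferase gene of the NSD family thus lies beside 3 of the 4 receptors. Of these 13 neighbours, 12 had an H3K4me3 promoter peak in both lines, a state of 61.8% of all genes, while FGFR2, FGFR3 and FGFR4 had it in A549 alone, a state of 12.8%. The exception was HK3, a hexokinase gene, which had 0 of 7 targets in either line. NSD3, PLPP5, UIMC1 and NSD1 had Jun-family promoter peaks in A549 and none in B2B, which was found at 24% of the 20007 genes. LETM1 and ZNF346 had a Jun promoter peak in B2B and no Jun-family promoter peak in A549. Jun-family promoter peaks in B2B alone were found at 5.62% of the 20007 genes.

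The remaining genes of the pathway, 57 in 6 roles, were counted by promoter peaks of H3K4me3 and of the Jun family over all chromosomes. Of the 57, 37 had H3K4me3 in both lines, 11 in A549 alone and 1 in B2B alone, which is 64.9%, 19.3% and 1.75%, against 60.9%, 12.9% and 1.87% of 20007 genes. JunB was found in A549 alone at 19 (33.3%, against 26.7%), Jun at 12 (21.1%, against 19.3%) and JunD at 12 (21.1%, against 16.2%). Jun was found in B2B alone at 5 (8.77%, against 6.5%). The lean to A549 was therefore shared by the genome.

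Of the 18 ligand genes, 6 had H3K4me3 in both lines (60.9% of 20007 genes) and 4 in A549 alone (12.9%). FGF19, the ligand of FGFR4, was among those of A549 alone. FGF1, a ligand of all receptors, had the highest Jun-family folds of the group, with Jun at 24.6 and JunB at 13.3 in B2B and at 8.86 and 6.30 in A549, and no H3K4me3 peak in either line. FGF2, a broadly made ligand, had JunB (4.26) and Jun (6.49) in A549 alone, and FGF9 had Jun (12.01) in B2B alone. Of 11 co-receptor and decoy genes, 7 had H3K4me3 in both lines (60.9% of 20007 genes). The other 4, KL, KLB, FLRT1 and GPC4, had it in A549 alone (12.9%). KLB and FLRT1, on chromosomes that every list covers, had no pol II promoter peak in either line. KL and KLB encode the Klotho co-receptors. FLRT3, a membrane protein that binds FGF receptors, had Jun at 22.3 in A549 and 29.1 in B2B, the proteoglycan gene GPC1 had 23.6 and 6.07, and FLRT2 had 7.36 and 29.4.

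Adaptor genes had H3K4me3 in both lines at 10 of 10 (60.9% of 20007 genes). PTPN11, the phosphatase SHP2 that links FRS2 to RAS, had all 3 Jun-family proteins in A549 (JunB 16.4, Jun 44.7, JunD 9.38) and Jun (6.36) in B2B. PLCG1, which opens the phospholipase branch, had all 3 in B2B (11.2, 36.1 and 5.01) and JunB (5.25) in A549, and SOS2, a RAS exchange factor, had Jun at 16.9 in A549 and 4.37 in B2B. Among the 11 feedback inhibitors, all 3 Jun-family proteins were found in A549 but not all 3 in B2B at SPRED1, DUSP4, DUSP5 and DUSP6, in both lines at SPRED2, and in B2B alone at 0. All 3 in A549 were found at 13.8% of all genes. SPRED2, which blocks RAF activation, had Jun folds of 58.9 in A549 and 53.6 in B2B, the highest of the pathway. DUSP5 and DUSP6, phosphatases of ERK, had Jun at 41.1 and 26.3 in A549 and at 10.8 and 4.75 in B2B.

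**Figure D5:**
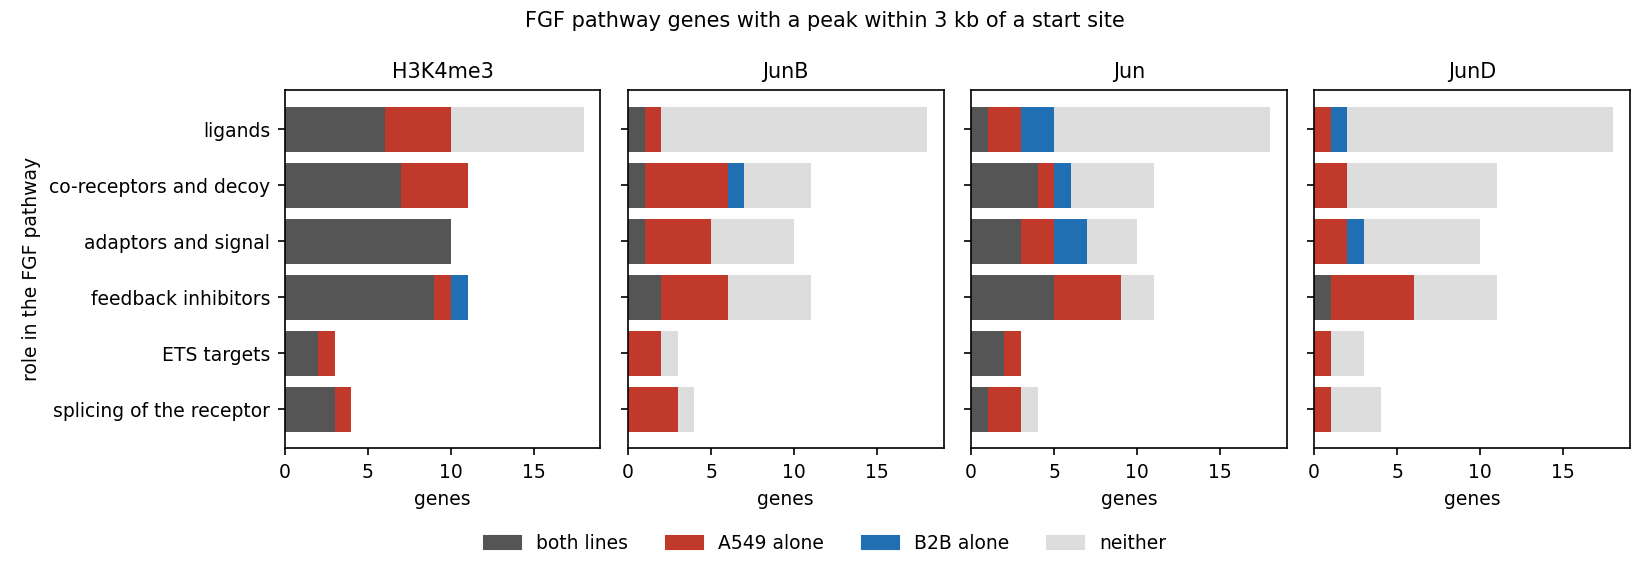
Number of FGF pathway genes, by role, with a peak of H3K4me3, JunB, Jun or JunD within 3 kb of a start site in both lines, in A549 alone, in B2B alone or in neither. H3K4me3 is found in both lines at 10 of 10 adaptor genes, and JunD in A549 alone at 5 of 11 feedback inhibitors.

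The 3 ETS factor genes that respond to FGF signals all had a Jun peak in A549 (39.2% of all genes on chromosomes 1 to 12), with ETV5 at 43.9 in A549 and 8.35 in B2B, ETV4 at 15.6 and 9.34, and ETV1 at 7.02 in A549 alone. Of the 4 splicing regulators, ESRP1, which favours the epithelial receptor forms, had H3K4me3, pol II and H3K27ac in A549 alone. ESRP2 had all 3 Jun-family proteins in A549 (4.58, 8.25 and 4.36) and none in B2B, PTBP1 had JunB (4.03) and Jun (6.49) in A549 alone, and RBFOX2 had Jun at 11.6 in A549 and 11.5 in B2B.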

How the data were processed

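ChIP-seq peak lists of A549 and B2B cells were analysed as deposited, 16 lists for 36 samples in 18 groups, of which 4 samples are input chromatin without a list. The authors aligned reads to hg38 with Bowtie2 2.4.4, removed duplicates, merged the 2 replicates, used SAMtools 1.13 for CPM scaling and MACS2 2.2.7.1 for peak calling. The control and the options of the caller are not given in the sources used here. The deposited score of a peak is 10 times its −log10 q rounded down. The deposited fold was read as the ratio of pileup to local background, with the same small constant added to each. The authors' significance is −log10 of a p-value and of a q-value. All are the caller's values, which differ in scale between lists and were ranked within a list. Folds were combined across lists only in sums over the Jun family, used to name pathway genes and to draw regions, and in correlations between genes. Because merging hides replicate spread, no test between lines was made. Depth per library is not known from these lists.

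Start sites came from GENCODE release 44. Intervals were computed in Python 3.11.15 with NumPy 2.4.6, pileups and 95% Wilson intervals with SciPy 1.17.1, sequences with pysam 0.24.0 and plots with Matplotlib 3.10.9. Interval counts were tested on simulated data against bedtools 2.31.1 (4 of 4 equal), and pileups were recovered for 1976 of 2000 simulated peaks. Minimum overlap was 1 bp. Named genes are the 4 receptors, coding genes starting within 200 kb, up to 3 genes per pathway role with the highest summed Jun-family fold, and the 3 genes most alike each receptor (1 gene and the sequences of 2 sites are not reported here), with other pathway genes named where counts are small, after their values were seen. The members and lists were chosen with earlier results of these data known. Alternatives were other distances, start sites, a −log10 q of at least 5, lists of equal length and other rules for merged regions. Promoter sequences are from RefSeq, GRCh38.p14.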

Additional observations from a re-analysis of the deposited data

How the results depend on the processing

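No paired analysis was possible because the authors merged the replicates before calling peaks, and for the same reason no replicate could be left out. Of 112 alternative values, 95 stayed close to those reported, 14 moved and 3 changed sign. A count was called close within a fixed ratio of the main count. FGFR1 in B2B thus passed with 5 targets in place of 7, within 1 kb or with protein-coding transcripts alone. A shared percentage was called close inside the Wilson interval of its main value. These intervals were wide, 3.62 to 62.5 at FGFR3, so the 31 of 32 percentages that passed say little about stability. With the 5-prime end of the gene record alone, promoter targets in B2B fell to 4 at FGFR1 and to 0 at FGFR2, and with transcripts of the protein-coding type alone to 0 at FGFR2, because fewer start sites were counted. The A549 counts moved by at most 1. The difference in Jun-family regions (A549 alone minus B2B alone) depended on the window. Within 500 kb it was -5 at FGFR1, 7 at FGFR2, 2 at FGFR3 and 24 at FGFR4, opposite in sign to the reported 1, -5 and -2 at the first 3. Within 100 kb it was 3, -2, -1 and 5, and 0% of 4 regions were shared at FGFR2. At a −log10 q of at least 5 it was 3 at FGFR1 and 1 at FGFR4, with lists of equal length -1 at FGFR3 and 1 at FGFR4, and with peaks within 500 bp merged 0 at FGFR1. The cause was not tested. Reads per peak limit the weak calls, which rest on as few as 9 reads.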
